A study of Mus musculus with 9 samples.

Results

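The 9 genes described here encode MHC class I molecules and the machinery that loads them with peptide: the heavy chains H2-K1, H2-D1 and H2-T23, the light chain B2m, the peptide transporter subunits Tap1 and Tap2, the loading factor Tapbp, the trimming enzyme Erap1 and the transcriptional activator Nlrc5. They were taken by name from the rows of a table of 47480 genes, and all 9 were found and had enough counts to be tested among 16426 genes. RNA was sequenced from C57BL/6 mouse hematopoietic cells of 2 populations, each as total RNA and as polysomal RNA, the part that sediments with several ribosomes in a sucrose gradient. LSK cells, which the labels call stem cells, gave 2 libraries of total and 2 of polysomal RNA. MP cells, which the labels class as progenitors without spelling out the abbreviation, gave 2 libraries of total and 3 of polysomal RNA. All cells had been held in cycloheximide, which stalls ribosomes on their messages, at 100 ug/ml for 10 min. Lysate taken before the gradient gave the total RNA, and fraction 7 of 10 gave the polysomal RNA. The labels name neither genotypes nor ages, and separate animals are not stated, nor whether a total and a polysomal library share a lysate. P-values below therefore measure the spread between these libraries, part of which may be technical.

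MHC class I molecules carry short peptides from the cell's own proteins to its surface, where cytotoxic T cells and natural killer cells read them. Peptides cut by the proteasome are pumped into the endoplasmic reticulum by the Tap1 and Tap2 transporter, trimmed there by Erap1, and placed into the groove of a heavy chain bound to B2m with the help of Tapbp, also called tapasin. Nlrc5 acts at class I promoters together with DNA-bound factors, and interferons raise expression of most of these genes. Blood stem cells carry class I on their surface as most nucleated cells do.

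The control regions of the classical heavy chain genes are shown first, as a description of sequence. Whether they bear on the levels below was not tested. RefSeq promoter sequences (GRCm38.p6) matched 7 of the 9 genes, with no entry used for Tap2 and Nlrc5. The 250 bases before each RefSeq start were searched on both strands for 4 motifs: a kappa B-like motif (GGGA, any 4 bases, CC), an interferon regulatory factor-like motif (TTTC, any 2 bases, TT), the cyclic AMP response element core TGACG and the CCAAT box (CCAAT). The windows of H2-K1 and B2m follow, with bases that match any of these motifs in capitals. H2-K1 (the first of its 2 entries) lies at chr17:34000348-34000597 on the minus strand and B2m at chr2:122147437-122147685 on the plus strand.
H2-K1: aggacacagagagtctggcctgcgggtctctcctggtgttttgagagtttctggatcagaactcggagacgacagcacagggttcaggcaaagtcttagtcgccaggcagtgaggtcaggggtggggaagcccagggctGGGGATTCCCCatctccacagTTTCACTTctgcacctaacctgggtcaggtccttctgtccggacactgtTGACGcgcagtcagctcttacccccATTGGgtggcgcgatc
B2m: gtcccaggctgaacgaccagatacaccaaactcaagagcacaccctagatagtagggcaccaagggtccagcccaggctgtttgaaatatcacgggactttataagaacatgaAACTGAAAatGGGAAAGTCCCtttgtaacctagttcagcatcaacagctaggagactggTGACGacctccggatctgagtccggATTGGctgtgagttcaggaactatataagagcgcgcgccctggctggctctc
Both windows hold all 4 motifs. The kappa B-like letters read on both strands at overlapping positions in each, and no match overlaps one of another motif.

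The kappa B-like and interferon regulatory factor-like letters sit side by side in H2-K1 and H2-D1. These 30 bases begin 111 bases before the RefSeq start of H2-K1, at chr17:34000429-34000458 on the minus strand, and 171 bases before the RefSeq start of H2-D1, at chr17:35262923-35262952 on the plus strand. The GENCODE M21 model of H2-D1 starts further upstream, so its site lies inside that gene model. The matches are again in capitals.
H2-K1: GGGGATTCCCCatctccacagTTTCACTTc
H2-D1: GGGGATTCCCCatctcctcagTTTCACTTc
The sites share 29 of 30 bases and differ by A18T, counted from 1 at the 5′ end with the base of H2-K1 first. Of the 7 genes with a promoter, 3 (H2-K1, H2-D1 and B2m) held the kappa B-like letters, 4 (the same 3 and H2-T23) the interferon regulatory factor-like letters, 4 (H2-K1, H2-D1, B2m and Tap1) TGACG, and 6 (all but Erap1) CCAAT. Among all 32851 promoter entries these letters were found in 17.6%, 21.3%, 17.8% and 33.8% of windows of the same length. The windows are upstream of the RefSeq starts only: exons of GENCODE M21 cover all 250 bases of those of H2-D1, Tap1, Tapbp and Erap1 and 154 of those of H2-T23. A match in the letters is a description of the window and not evidence of binding.

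The members are protein-coding genes of GRCm38 in the GENCODE M21 annotation, and 6 of them lie on chromosome 17. From proximal to distal these are Tapbp (chr17:33915899-33929292), H2-K1 (chr17:33996017-34000347), Tap1 (chr17:34187553-34197225), Tap2 (chr17:34203527-34216321), H2-D1 (chr17:35262730-35267499) and H2-T23 (chr17:36029773-36032855). B2m lies at chr2:122147686-122153083, Nlrc5 at chr8:94434356-94527272 and Erap1 at chr13:74639568-74693201. Heavy chain genes share long stretches of coding sequence, so reads from them can be split, merged or dropped in counting. The longest identical run between H2-K1 and H2-D1 is 91 coding bases, at coding positions 738 to 828 of H2-K1, and is printed because no read that falls inside it can be assigned to one of these genes.
H2-K1 and H2-D1: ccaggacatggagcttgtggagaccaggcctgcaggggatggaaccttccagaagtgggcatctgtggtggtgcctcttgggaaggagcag
Of all 50-base stretches of coding sequence, 12.9% in H2-K1, 23.5% in H2-D1 and 15.6% in H2-T23 also occur in at least 1 other of 19 class I heavy chain genes. The remaining stretches are particular to each gene within that family. The strand setting of the counting is not given in the sources used here. Exons of Tap1 overlap those of Psmb9 by 212 bases, exons of Erap1 overlap those of Cast by 834 bases, and exons of Tapbp overlap those of Gm19412 by 904 bases, in each case on the opposite strand. Exons of Tap2 overlap those of Gm15821 by 533 and of Gm20496 by 165 bases and exons of Nlrc5 overlap those of 9330175E14Rik by 78 bases, also on the opposite strand, and exons of Tapbp share 149 bases with Zbtb22 on the same strand. Levels of these members may include reads of the partner.

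Total counts were similar in all 9 libraries, from 27342343 to 34807735. Levels of single genes are given in CPM, counts scaled to a common library size with trimmed mean of M-values (TMM) factors. The population labels were checked against summed marker levels: 10 stem cell markers came to 885 to 1298 CPM in LSK and 81.5 to 120 CPM in MP libraries, and 10 erythroid markers to 449 to 762 CPM in LSK and 4014 to 7057 CPM in MP. Some libraries stood apart within a population. The LSK libraries numbered 2 had summed levels of 12 B cell markers of 3375 CPM (polysomal) and 4801 CPM (total), against 903 and 624 CPM in the LSK libraries numbered 1 and 155 to 357 CPM in MP. The MP libraries numbered 1 had summed levels of 10 maturing neutrophil markers of 17740 CPM (polysomal) and 14290 CPM (total), against 521 to 1007 CPM in the other MP libraries. Ighm and Igkc made up most of the B cell sum, with 2491 and 695 CPM in LSK polysomal 2 and 1958 and 2245 CPM in LSK total 2. The 12 macrophage and dendritic markers summed to 1639 CPM in LSK polysomal 2 and 434 CPM in LSK polysomal 1, of which Flt3, a gene that multipotent progenitors also express, gave 1474 and 274 CPM. Of the other markers of that list, C1qa, C1qb, C1qc and Cd68 were higher in LSK polysomal 2 than in LSK polysomal 1. Their levels were 15.5 against 6.38, 26.95 against 6.08, 18.4 against 1.93 and 44.5 against 26.7 CPM. Vcam1 and Csf1r were lower in LSK polysomal 2 (21.2 against 58.4 CPM and 23.2 against 42.0 CPM), as were Adgre1, Itgax, Cd209a and Clec9a. Siglech had 0 counts in both libraries. No B cell marker was at 0 in 3 of the LSK libraries and 1 was at 0 in LSK polysomal 2. The part of these cells in the results below was not tested beyond leaving the libraries out. In bulk RNA, fewer cells of a type and less RNA per cell cannot be told apart.

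H2-T23 encodes the nonclassical heavy chain Qa-1, which presents a narrow set of peptides to receptors of natural killer cells and T cells. Its level was 291 and 206 CPM in LSK total RNA, 286 and 500 CPM in LSK polysomal RNA, 146 and 103 CPM in MP total RNA, and 93.4, 138 and 104 CPM in MP polysomal RNA. Every LSK library lay above every MP library, and H2-T23 was the only member of which this holds over all 9 libraries. The group means were 249 ± 60.5 CPM in LSK total RNA (SD, n = 2) and 393 ± 151 CPM in LSK polysomal RNA (n = 2), against 124 ± 30.04 CPM in MP total RNA (n = 2) and 112 ± 23.6 CPM in MP polysomal RNA (n = 3). Averaged over both fractions, H2-T23 fell in MP by 1.41 on the log2 scale (SE 0.34, adjusted p = 0.0282, edgeR's quasi-likelihood test with Benjamini-Hochberg adjustment over all 16426 genes). This mean may count a lysate more than 1 time, in which case its p is too small. Within a fraction the difference did not pass, with a log2 change of -1.81 (SE 0.44, adjusted p = 0.0606 by edgeR) in polysomal RNA and -1.001 (SE 0.50, adjusted p = 0.348 by edgeR) in total RNA. The sign held in every fit, but the call of the mean rested on the full set of libraries. Leaving out LSK polysomal 2, LSK total 1, any of the 3 MP polysomal libraries or either MP total library put the adjusted p between 0.0512 and 0.157, with log2 changes of -1.17 to -1.53.

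**Figure D1:**
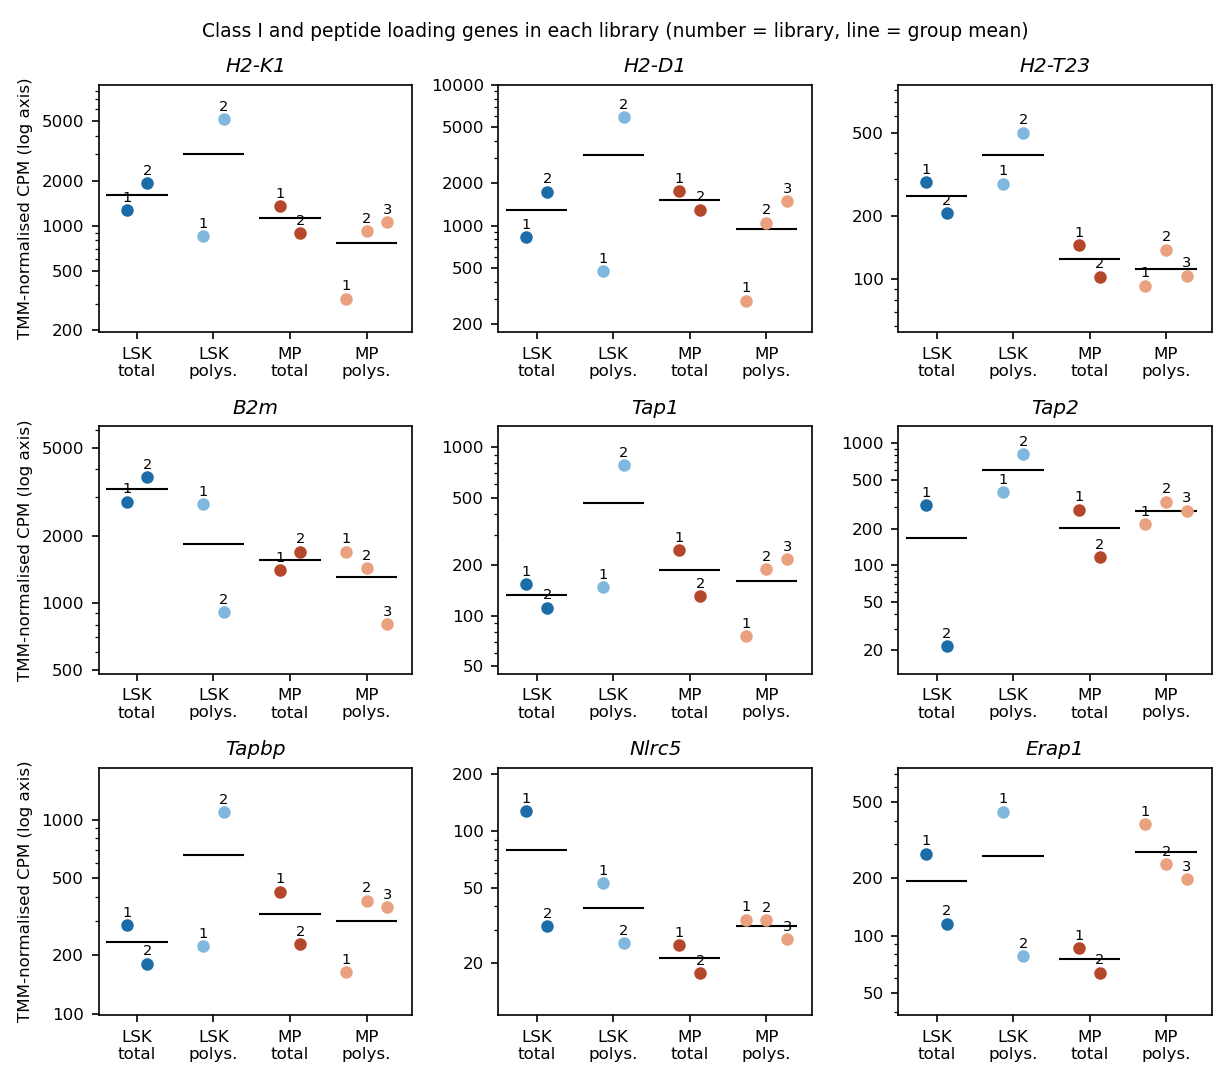
TMM-normalised CPM of each of the 9 genes on a log axis, by population and RNA fraction. Each point is 1 library with its number, and the line is the group mean (n = 2, or 3 for MP polysomal RNA). H2-T23 separates all LSK from all MP libraries, while H2-K1, H2-D1, Tap1 and Tapbp have LSK polysomal 2 far above every other library.

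H2-K1 encodes a classical heavy chain, which presents peptides to cytotoxic T cells. It stood at 1267 and 1937 CPM in LSK total RNA, 857 and 5179 CPM in LSK polysomal RNA, 1349 and 890 CPM in MP total RNA, and 325, 922 and 1053 CPM in MP polysomal RNA. LSK polysomal 2 was the highest library and MP polysomal 1 the lowest, and LSK and MP overlapped in both fractions. The log2 change of MP over LSK was -1.98 (SE 0.73, adjusted p = 0.184 by edgeR) in polysomal RNA and -0.52 (SE 0.80, adjusted p = 0.804 by edgeR) in total RNA. The polysomal value depended on a single library: without LSK polysomal 2 it was -0.16, with an adjusted p of 0.96 by edgeR.

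H2-D1, the other classical heavy chain gene counted here, followed the same order at its extremes. Its levels were 828 and 1742 CPM in LSK total RNA, 472 and 5920 CPM in LSK polysomal RNA, 1758 and 1299 CPM in MP total RNA, and 292, 1047 and 1492 CPM in MP polysomal RNA. The 2 LSK polysomal libraries differed 12.5-fold, more than any difference between group means, and the populations overlapped in both fractions. The log2 change was -1.76 (SE 0.92, adjusted p = 0.364 by edgeR) in polysomal RNA and 0.25 (SE 1.02, adjusted p = 0.934 by edgeR) in total RNA. Without LSK polysomal 2 the polysomal value turned to 1.00. The ratio of H2-D1 to H2-K1 within a library, which cancels the library's scaling, ran from 0.551 to 1.14 in LSK and from 0.898 to 1.46 in MP.

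B2m encodes the light chain that all class I heavy chains need to fold and reach the surface. It was counted at 2863 and 3684 CPM in LSK total RNA, 2794 and 911 CPM in LSK polysomal RNA, 1410 and 1703 CPM in MP total RNA, and 1702, 1439 and 803 CPM in MP polysomal RNA. In total RNA both LSK libraries lay above both MP libraries, whereas LSK polysomal 2 fell among the lowest libraries, below all but MP polysomal 3. The log2 change of MP over LSK was -1.07 in total RNA (SE 0.59, adjusted p = 0.4 by edgeR) and -0.49 in polysomal RNA (SE 0.53, adjusted p = 0.692 by edgeR). Without LSK polysomal 1 the polysomal value was 0.63.

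B2m and the classical heavy chains parted company in LSK polysomal 2. The ratio of H2-K1 to B2m CPM was 5.69 there and 0.307 in LSK polysomal 1, 0.443 and 0.526 in LSK total RNA, 0.957 and 0.523 in MP total RNA, and 0.191, 0.640 and 1.31 in MP polysomal RNA. No other library came near the ratio of LSK polysomal 2. Per length, as CPM divided by M21 exon length (RPKM), B2m was the highest member in the other 8 libraries, with 934 RPKM in MP polysomal 3 as its lowest and 4284 RPKM in LSK total 2 as its highest. In LSK polysomal 2 it stood at 1059 RPKM, below H2-D1 at 2296 RPKM and H2-K1 at 1763 RPKM.

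The order of the group means per length was similar in the 2 kinds of total RNA. In LSK total RNA it ran from B2m at 3806 ± 675 RPKM (SD, n = 2) through H2-K1 at 545 ± 161, H2-D1 at 498 ± 251, H2-T23 at 86.0 ± 20.9, Tapbp at 64.2 ± 20.3, Tap2 at 44.3 ± 54.6, Erap1 at 26.4 ± 14.9 and Tap1 at 24.2 ± 5.33 RPKM down to Nlrc5 at 9.36 ± 8.03 RPKM. Libraries of neighbours overlapped from H2-K1 to H2-D1 and in each step from H2-T23 to Tap1, but not between B2m and H2-K1, H2-D1 and H2-T23, or Tap1 and Nlrc5. In MP total RNA B2m (1810 ± 242 RPKM, n = 2) was again first, then H2-D1 (593 ± 126) and H2-K1 (381 ± 111), and Erap1 (10.3 ± 2.13) and Nlrc5 (2.51 ± 0.60) were last. Between these stood Tapbp, Tap2, H2-T23 and Tap1, from 90.0 ± 38.6 down to 34.2 ± 14.6 RPKM, with each overlapping the next.

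Tap1 forms the peptide transporter together with Tap2. Its levels were 153 and 112 CPM in LSK total RNA, 148 and 783 CPM in LSK polysomal RNA, 244 and 131 CPM in MP total RNA, and 75.7, 188 and 216 CPM in MP polysomal RNA. LSK polysomal 2 again stood above all others and MP polysomal 1 below. The populations overlapped in both fractions, in polysomal RNA because LSK polysomal 1 lay below MP polysomal 2 and 3. The log2 change of MP over LSK was -1.54 (SE 0.70, adjusted p = 0.295 by edgeR) in polysomal RNA and 0.50 (SE 0.78, adjusted p = 0.805 by edgeR) in total RNA, and the polysomal value was 0.12 without LSK polysomal 2.

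Tap2 varied in a way of its own. It stood at 314 and 21.6 CPM in LSK total RNA, 399 and 818 CPM in LSK polysomal RNA, 286 and 116 CPM in MP total RNA, and 217, 334 and 282 CPM in MP polysomal RNA. LSK total 2 was by far the lowest, with 865 reads against 3579 to 19701 in the other libraries, and LSK lay above MP in polysomal RNA without overlap. The ratio of Tap2 to Tap1 was 0.193 in LSK total 2 and 0.888 to 2.87 in the other libraries. The polysomal log2 change was -1.13 (SE 0.87, adjusted p = 0.557 by edgeR), and that in total RNA was 0.26 (SE 0.97, adjusted p = 0.926 by edgeR) with all libraries and -0.65 without LSK total 2.

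Tapbp bridges the transporter and the empty heavy chain. It was at 285 and 181 CPM in LSK total RNA, 223 and 1090 CPM in LSK polysomal RNA, 426 and 228 CPM in MP total RNA, and 164, 383 and 353 CPM in MP polysomal RNA. Its high and low libraries were those of Tap1, and the populations overlapped in both fractions. The log2 change of MP over LSK was -1.13 (SE 0.67, adjusted p = 0.432 by edgeR) in polysomal RNA, turning to 0.44 without LSK polysomal 2, and 0.49 (SE 0.75, adjusted p = 0.801 by edgeR) in total RNA.

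Erap1 trims the ends of peptides in the endoplasmic reticulum. Its levels were 269 and 115 CPM in LSK total RNA, 446 and 78.3 CPM in LSK polysomal RNA, 86.0 and 64.1 CPM in MP total RNA, and 383, 236 and 198 CPM in MP polysomal RNA. All MP polysomal libraries lay above both MP total libraries, and LSK polysomal 2 was among the lowest libraries, as for B2m. The log2 change of MP over LSK was -1.36 (SE 0.79, adjusted p = 0.431 by edgeR) in total RNA, where the populations did not overlap, and 0.06 (SE 0.71, adjusted p = 0.984 by edgeR) in polysomal RNA. Without LSK polysomal 2 the polysomal value was -0.70, and without LSK polysomal 1 it was 1.90.

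Nlrc5, the class I activator, was the lowest member per length in every library, from 2.09 to 15.0 RPKM. It was counted at 128 and 31.3 CPM in LSK total RNA, 53.1 and 25.6 CPM in LSK polysomal RNA, 25.0 and 17.7 CPM in MP total RNA, and 34.1, 33.7 and 26.9 CPM in MP polysomal RNA. LSK total 1 was far above the rest, and the populations were apart in total but not in polysomal RNA. The log2 change was -1.90 (SE 0.73, adjusted p = 0.222 by edgeR) in total RNA and -0.32 (SE 0.64, adjusted p = 0.858 by edgeR) in polysomal RNA. In the mean of both fractions it was -1.11 (SE 0.48, adjusted p = 0.192 by edgeR), and -0.43 without LSK total 1.

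Set side by side, MP had lower fitted levels than LSK for all 9 members in the mean of both fractions, where 50.5% of all genes were lower, but H2-T23 alone passed the test. There the count of members that fell was 1 of 9, where 7.37% of all genes tested fell and 10.1% changed in either direction. The median log2 change of the members was -0.76, against -0.01 for all genes. At an unadjusted p under 0.05 the count was 3 of 9 (H2-K1, H2-T23 and Nlrc5), against 15.7% of all genes in that direction, and the libraries of 1 (H2-T23) did not overlap, against 8.51%. The common sign was not stable, since without LSK polysomal 2 H2-D1, Tap1 and Tapbp turned to 0.63, 0.32 and 0.46 and 6 of 9 remained negative. Without LSK total 1, Tap2 turned to 1.05, and without LSK polysomal 1, Erap1 turned to 0.24.

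In total RNA 0 of 9 members passed by edgeR, 1 (Nlrc5) was lower at an unadjusted p under 0.05, and DESeq2 called 0. Of all genes 1.09% passed by edgeR, and 12.5% were lower at an unadjusted p under 0.05. Members with a negative change numbered 5 of 9, against 50.2% of all genes, with a median log2 change of -0.52. The 4 members whose LSK libraries lay above their MP libraries without overlap were H2-T23, B2m, Nlrc5 and Erap1, where 28.5% of all genes did so. In polysomal RNA 0 of 9 passed by edgeR, where 3.35% of all genes passed. There 2 members (H2-K1 and H2-T23) were lower at an unadjusted p under 0.05, against 11.7% of all genes. DESeq2 called 1, H2-T23, but it also called many more of all genes than edgeR, as counted further below. The change was negative for 8 of 9, against 51% of all genes, with a median of -1.13, and 2 (H2-T23 and Tap2) did not overlap, against 17.4% of all genes that were lower without overlap. Leaving out LSK polysomal 2 brought the median to -0.52 and the count of negative changes to 6 of 9.

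**Figure D2:**
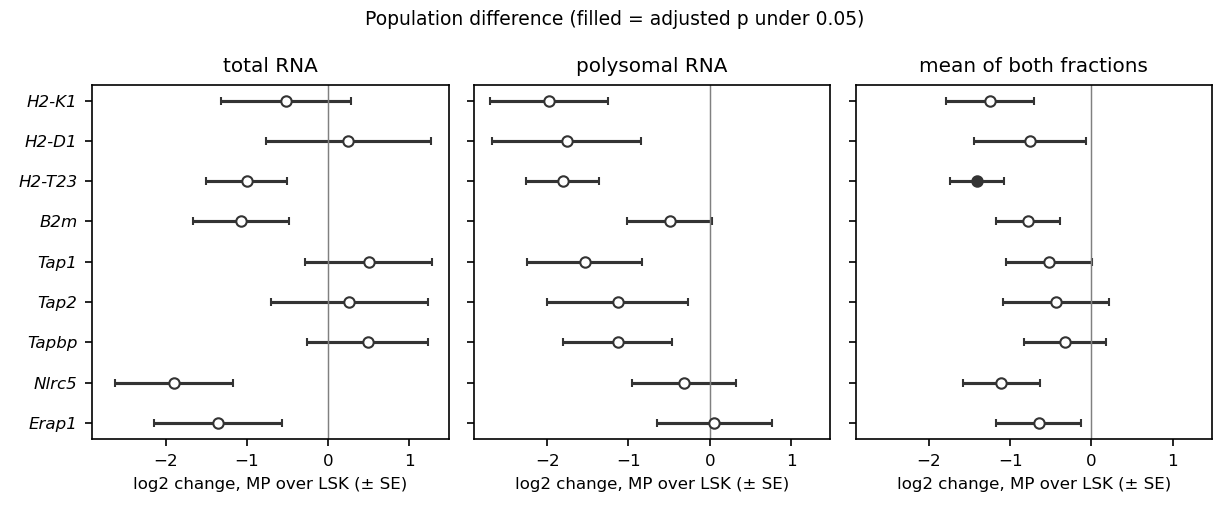
Log2 change of MP over LSK for the 9 genes in total RNA, polysomal RNA and the mean of both, with bars of 1 standard error from the edgeR fit to all 9 libraries. Filled points passed an adjusted p of 0.05, which H2-T23 alone did, in the mean of both fractions at -1.41.

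The comparison of polysomal with total RNA asks which messages are over- or underrepresented in fraction 7 of the gradient, relative to the whole lysate. Messages on ribosomes in other fractions were not sequenced apart, so it does not measure the share of a message on ribosomes. In LSK 0 of 9 members passed by edgeR and by DESeq2, as did 0% of all genes by edgeR. Polysomal values were higher for 7 of 9 members, against 50.8% of all genes, with a median log2 change of 0.91 against 0.02 for all genes. Tap1 alone had an unadjusted p under 0.05, with a change of 1.81 (SE 0.81, adjusted p = 0.413 by edgeR), as did 3.56% of all genes in that direction. Tap2 was higher and B2m lower in polysomal RNA without overlap of the libraries, as were 16.2% and 20.6% of all genes. This direction rested on LSK polysomal 2, without which 4 of 9 members were positive and the median was -0.05.

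In MP 0 of 9 members passed by edgeR and by DESeq2, again with 0% of all genes by edgeR. Erap1 had the largest member change as measured, 1.86 higher in polysomal RNA (SE 0.76, unadjusted p = 0.0345, adjusted p = 0.656 by edgeR), where 4% of all genes were higher at an unadjusted p under 0.05. With the GC trend removed it was 1.06 (SE 0.57), and B2m went from -0.24 to -1.04 (SE 0.44). The fractions of Erap1 did not overlap, and Nlrc5 at 0.56 (SE 0.65) also had no overlap between the fractions, as did 16.3% of all genes in that direction. The median member change was -0.15, against -0.08 for all genes. The interaction, which asks whether the polysomal-to-total difference itself differed between MP and LSK, passed for 0 of 9 members and 0% of all genes by edgeR, with 0 members and 5.29% of all genes at an unadjusted p under 0.05 and 0 members by DESeq2. Its values ran from -2.04 for Tap1 (SE 1.06) to 1.58 for Nlrc5 (SE 0.97). Each end rested on 1 library, with -0.39 for Tap1 without LSK polysomal 2 and 0.22 for Nlrc5 without LSK total 1.

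The members also differ in base composition, and the libraries differed in how levels ran with it. B2m and Erap1 have a GC content of 41.2% and 41.5%, and the other 7 lie between 52.4% for Nlrc5 and 58.4% for Tapbp. In LSK polysomal 2, genes under 45% GC lay at a median of -0.78 on the log2 scale from their own mean over the libraries, and genes at 52% GC and over at 0.79. The opposite slope was seen in LSK polysomal 1 (0.38 and -0.41) and MP polysomal 1 (0.48 and -0.38). Both LSK total libraries shared that opposite slope (0.26 and -0.28, 0.17 and -0.29). Both MP total libraries ran the other way (-0.48 and 0.28, -0.38 and 0.21). In total RNA the slope thus ran with population, and the 2 cannot be told apart there. On the same scale B2m at -0.91 and Erap1 at -1.09 were low in LSK polysomal 2, and H2-K1 at 2.14, H2-D1 at 2.33 and Tap1 at 2.12 were high. Nlrc5 at -0.43 did not follow this, since the trend at its GC content was 0.40 in that library. Subtracting each library's trend over GC left 1.47 for H2-K1, 1.80 for H2-D1 and 1.38 for Tap1 in that library, and -0.041 for B2m. The SD over the 9 libraries became smaller for 6 members and larger for H2-T23, Tap2 and Nlrc5. With the trend removed in the fit, H2-T23 passed in the mean of both fractions at a log2 change of -1.59 (SE 0.33, adjusted p = 0.00942 by edgeR), and no other member did. In total RNA between populations that fit gave negative changes for 9 of 9 members, with a median of -0.56. As measured there were 5 of 9, with 50.2% of all genes negative.

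**Figure D3:**
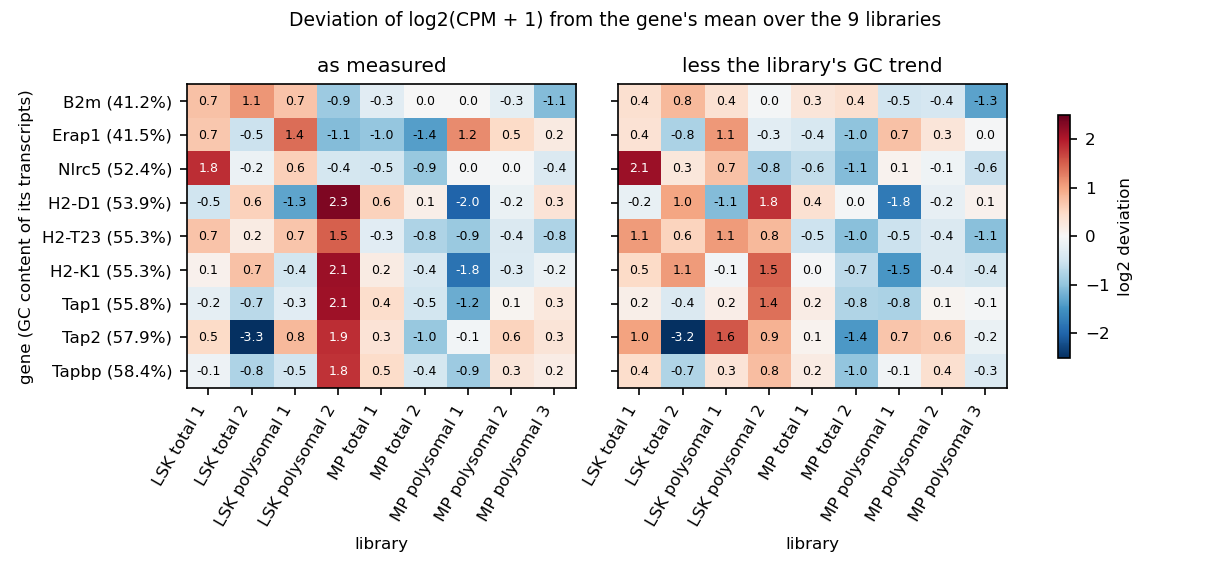
Deviation of log2(CPM + 1) of each gene from its mean over the 9 libraries, as measured and after the trend of each library over GC content was subtracted. Rows are ordered by GC content and columns by group. In LSK polysomal 2 B2m, Erap1 and, among the GC-rich members, Nlrc5 lie below their means and the other 6 lie above, and the low Tap2 value in LSK total 2 is seen in both panels.

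Pairs of members that moved together over the libraries were described by the Pearson correlation of log2(CPM + 1) over 9 libraries, which share populations, fractions and GC trends. Tap1 and Tapbp had the highest value as measured at 0.98 (0.78 less the GC trend), and H2-K1 and H2-D1 had 0.92 (0.84 less the trend). H2-K1 and B2m had -0.18 (0.46 less the trend). LSK polysomal 2 weighs on these values, since H2-K1, H2-D1, Tap1 and Tapbp lay there at 2.14, 2.33, 2.12 and 1.81 from their means. Correlations without that library were not computed, here or for the genes that follow. Among 8753 other genes with mean levels of 10 CPM or more, those most like B2m were Fkbp3 (0.97), Sepp1 (0.96) and Itgb3bp (0.96). Those most like H2-K1 were Tha1 (0.98), Mboat1 (0.98) and the class II gene H2-Ab1 (0.97), and those most like Tap1 were Tmem86a (0.98), Anks1 (0.96) and Stat3 (0.96). The genes like B2m with a known GC content had 40.6% and 40.3%, and those like H2-K1 and Tap1 had 49.5% to 59.5%.

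Other class I heavy chain and class I-like genes were mostly lower in MP. Of 25 listed genes, 21 were rows of the table and 16 had enough counts, and 7 of 16 fell in the mean of both fractions (H2-Q6, H2-Q7, H2-T3, H2-T10, H2-T22, H2-M3 and Fcgrt), beside 7.37% of all genes. Of these 7, H2-T3 reached the minimum count of 10 for testing through LSK libraries alone, so its fall in MP adds no support. H2-Q10, also tested, reached it through LSK alone too. The median log2 change was -1.66, against -0.01 for all genes, and 14 of 16 were negative. H2-Q6, a nonclassical gene of the Qa-2 group, stood at 477 and 414 CPM in LSK total RNA, 273 and 249 CPM in LSK polysomal RNA, 117 and 81.6 CPM in MP total RNA, and 62.2, 127 and 102 CPM in MP polysomal RNA. All LSK libraries lay above all MP libraries. Its change was -1.79 (SE 0.33, adjusted p = 0.0104 by edgeR), and that of its neighbour H2-Q7, which shares much of its sequence, was -1.52 (SE 0.40, adjusted p = 0.04 by edgeR).

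Among the genes of the T and M regions that fell, H2-T22 changed by -1.58 (SE 0.37, adjusted p = 0.0266), H2-T10 by -1.83 (SE 0.39, adjusted p = 0.0185) and H2-M3, which presents formylated peptides, by -1.42 (SE 0.38, adjusted p = 0.0453), all by edgeR in the mean of both fractions. H2-T3 was counted 31 to 47 times in each LSK library and 0 to 4 times in each MP library. It could be tested only because it was high in LSK, which holds for its call in polysomal RNA below as well. Fcgrt encodes the heavy chain of the neonatal Fc receptor, which binds antibody and albumin with B2m and presents no peptide. It stood at 19.7 and 30.6 CPM in LSK total RNA, 35.7 and 46.8 CPM in LSK polysomal RNA, 5.10 and 2.82 CPM in MP total RNA, and 5.40, 4.16 and 3.16 CPM in MP polysomal RNA. The LSK and MP ranges of Fcgrt did not touch, and it fell both in the mean of both fractions (-2.97, SE 0.42, adjusted p = 0.00325 by edgeR) and in polysomal RNA (-3.28, SE 0.54, adjusted p = 0.0175 by edgeR).

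Within single fractions fewer of these genes passed: 2 of 16 (H2-T3 and Fcgrt) fell in polysomal RNA, where 3.35% of all genes changed, and 0 of 16 in total RNA by edgeR, where 1.09% changed. In total RNA 8 of 16 were lower at an unadjusted p under 0.05, against 12.5% of all genes. DESeq2 called 6 there, but it also called many more of all genes than edgeR, as counted further below. Fcgrt did not pass in polysomal RNA without LSK polysomal 2 (adjusted p = 0.0544 by edgeR) or without any of the 3 MP polysomal libraries (0.0707 to 0.104). The count of 7 in the mean of both fractions became 5 without both LSK libraries numbered 2 and 1 without both MP libraries numbered 1. Leaving out a single library brought it to between 2 (without MP total 1 or MP total 2) and 6, with 5 without LSK polysomal 2, 3 without LSK total 1 and 4 without LSK total 2, MP polysomal 2 or MP polysomal 3. It was 10 with the GC trend removed, a fit whose count over all genes is not given here. It was 11 by DESeq2, which also called more of all genes than edgeR. The 5 genes with too few counts, H2-Q1, H2-Q2, H2-Bl, H2-M2 and H2-M5, had at most 21 counts in a library.

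The chaperones and enzymes that work beside the members had mostly higher fitted levels in MP. Of 12 other peptide loading and trimming genes, 0 passed by edgeR or by DESeq2 in the mean of both fractions, and 10 of 12 were positive with a median log2 change of 0.74, where 49.5% of all genes were positive. At an unadjusted p under 0.05 there were 3 higher (Calr, Uggt1 and Lap3), beside 8.33% of all genes. Calr, the chaperone calreticulin of the loading complex, stood at 1699 and 1026 CPM in LSK total RNA, 966 and 240 CPM in LSK polysomal RNA, 2987 and 1976 CPM in MP total RNA, and 2209, 2605 and 1275 CPM in MP polysomal RNA. MP lay above LSK within each fraction but not over all libraries, and the change was 1.31 (SE 0.46, adjusted p = 0.111 by edgeR). LSK polysomal 2 was the lowest library of Calr, and also of Canx, Hspa5 and Tpp2 (187, 101 and 17.2 CPM). It was the highest of Thop1 (235 CPM). In total RNA, which lacks that library, 10 of 12 were positive with a median of 0.69, where 50.2% of all genes were negative. Uggt1, which checks the folding of glycoproteins and class I peptide loading, had 0.85 (SE 0.32, adjusted p = 0.138 by edgeR).

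**Figure D4:**
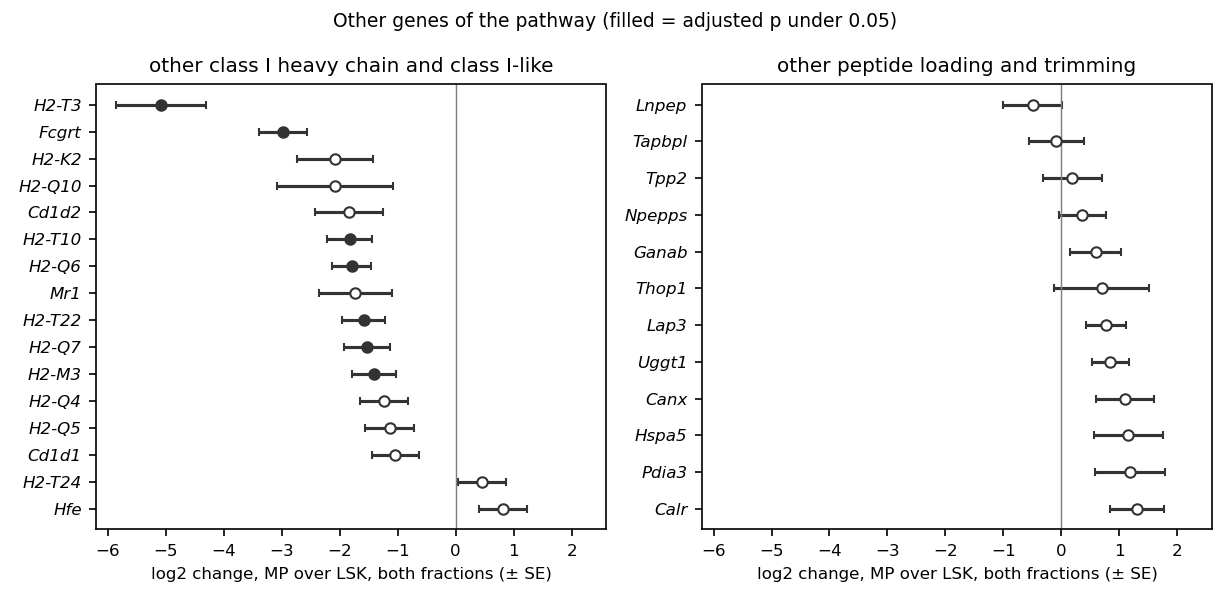
Log2 change of MP over LSK in the mean of both fractions for the 16 tested class I heavy chain and class I-like genes outside the 9 members and for 12 other peptide loading and trimming genes, with bars of 1 standard error. Filled points passed an adjusted p of 0.05. On the left 7 of 16 passed, all below 0, and on the right none passed and 10 of 12 lay above 0.

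The immunoproteasome supplies peptides suited to class I, and its genes Psmb8 and Psmb9 lie next to Tap1 and Tap2. Of its 3 catalytic subunits and 2 activator subunits, 0 of 5 passed by edgeR or DESeq2 in the mean of both fractions, where 10.1% of all genes passed by edgeR. All 5 were negative, as were 50.5% of all genes, with a median log2 change of -0.70. In total RNA 3 of 5 were negative with a median of -0.14, against 50.2% of all genes. In polysomal RNA 4 of 5 were negative with a median of -1.39, against 51% of all genes. Psmb9 had -0.89 (SE 0.35, adjusted p = 0.153 by edgeR) and Psmb10 -0.84 (SE 0.37, adjusted p = 0.197 by edgeR), the 2 with an unadjusted p under 0.05, against 15.7% of all genes that were lower at that p. Psmb8 stood at 1194 CPM in LSK polysomal 2 and at 174 to 410 CPM in the other libraries, the same outlying library as for Tap1. Psmb9, Psmb10 and Psme2 were also highest in that library, at 436, 573 and 325 CPM, and Psme1 was lowest there, at 125 CPM.

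Factors that act at class I promoters mostly did not pass. Of 15 such genes, 1 fell in the mean of both fractions, beside 7.37% of all genes. This was Irf2, which fell by 1.49 on the log2 scale (SE 0.38, adjusted p = 0.0358 by edgeR). The median was -0.06. Irf1, an activator of class I genes that was named after its values were seen, had -1.70 (SE 0.47, adjusted p = 0.0518 by edgeR). The subunits that work with Nlrc5 at the X box, Rfx5, Rfxap and Rfxank, had 0.13 (SE 0.51), 0.89 (SE 1.13) and -0.27 (SE 0.36). Irf2 kept its call without LSK polysomal 2 or MP polysomal 1 and lost it without any other single library, with adjusted p-values of 0.0501 to 0.175 by edgeR.

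Of 14 interferon receptor and signalling genes, 1 rose and 3 fell in the mean of both fractions, beside 2.72% and 7.37% of all genes. Ifngr1, the ligand-binding chain of the interferon gamma receptor, rose in MP by 1.499 on the log2 scale (SE 0.31, adjusted p = 0.0162 by edgeR). It stood at 194 to 297 CPM in the LSK and 481 to 910 CPM in the MP libraries, with no overlap. Irf9, part of the factor that carries type I interferon signals, fell by 1.42 (SE 0.35, adjusted p = 0.0308 by edgeR). Usp18 and Socs3, which damp these signals, fell by 1.99 (SE 0.36, adjusted p = 0.00896 by edgeR) and 2.54 (SE 0.70, adjusted p = 0.0489 by edgeR). Socs3 was low throughout, at 0.79 and 5.09 CPM in LSK total RNA and 1.86 and 7.27 CPM in LSK polysomal RNA. In MP it stood at 1.20 and 0.58 CPM in total and 0.38, 0.26 and 0.67 CPM in polysomal RNA. Its populations overlapped in total RNA, and the LSK libraries numbered 2 were its highest. Usp18 also fell in polysomal RNA, by 2.67 (SE 0.47, adjusted p = 0.0208 by edgeR). In the mean of both fractions Ifngr1 lost its call without LSK total 2, MP polysomal 2 or MP total 1 (adjusted p = 0.051 to 0.0959 by edgeR), Usp18 without MP total 1 or MP total 2 (0.0662 and 0.0742), and Irf9 without LSK polysomal 2, LSK total 1, MP polysomal 2 or 3, or either MP total library (0.0652 to 0.17). Socs3 kept its call only without LSK polysomal 1 or LSK total 1. In polysomal RNA Usp18 lost it without LSK polysomal 2 or any of the MP polysomal libraries (0.0722 to 0.124). Without both MP libraries numbered 1 none of these genes passed, and without both LSK libraries numbered 2 Usp18 alone did, in the mean of both fractions.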

How the data were processed

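Unnormalized counts of reads per gene, deposited by the authors for the 9 libraries, were the main data. The tools listed in the submitters' processing notes, without roles or order, are STAR, featureCounts, bcl2fastq and DESeq2, and the builds are GRCm38 and mm10. No version, annotation or strand setting is given in the sources used here. The second deposited table holds the authors' normalized expression on what looks like a log2 scale; its transform is unknown here, and it served as an alternative. Libraries were made with a SMARTer amplification kit, per the labels' protocols, and groups and library numbers come from the sample titles.

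The fits used edgeR 4.0.16 under R 4.3.3. Genes were kept by filterByExpr (minimum count 10, minimum total 15), libraries were scaled by TMM, and 1 quasi-likelihood model with a mean for each of 4 groups was fitted to all 9 libraries (5 residual degrees of freedom). Of 6 two-sided comparisons, each was adjusted over all 16426 genes by the Benjamini-Hochberg method at 0.05. SE is the log2 change divided by the square root of its F value. The median biological coefficient of variation was 0.558, at total counts of 27342343 to 34807735 per library. The procedure was also run on simulated counts with known changes. These were drawn independently, without GC trends, outlying libraries or shared lysates, so that run does not address such features and no result here rests on it. Exon lengths, GC content and positions come from GENCODE M21 by symbol. GC content was known for 96.5% of genes tested. The GC trend is a smooth curve per library through genes averaging 10 CPM or more.

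Named genes are the 9 members, the genes of each pathway list that passed or else up to 4 with the smallest p, and the 3 genes most correlated with B2m, H2-K1 and Tap1. The members and lists were chosen with earlier results of these data known. Alternatives used DESeq2 1.42.0 and limma 3.58.1, other scaling, no filter, a block for library number, fewer libraries and, chosen after seeing the data, removal of the GC trend.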

Additional observations from a re-analysis of the deposited data

How the results depend on the processing

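Of the 9 members, edgeR called 0 lower in polysomal RNA between populations, and this became 1 with library totals alone, 1 with DESeq2, 1 with limma on the deposited normalized values (H2-T23 in each) and 3 with no filter on low counts. In the mean of both fractions 1 member was called lower, 2 with no filter, 0 to 1 when single libraries were left out and 0 with neither MP library numbered 1. Without both LSK libraries numbered 2 the count was also 1, but the member was Nlrc5 (-1.67, adjusted p = 0.0353 by edgeR), while H2-T23 had -1.29 (adjusted p = 0.0548 by edgeR). Counts of 0 in the other comparisons held under every alternative run. Where an alternative left 1 library in a group, that library was assumed to vary like the rest. The labels do not say that a library number marks a shared animal or lysate. Deviations from the group mean correlated at 0.29 to 0.78 between libraries numbered 1 in every pair of groups. Libraries numbered 2 gave the same values as those numbered 1 between groups of 2, and -0.64 to -0.079 with MP polysomal 2. In a group of 2 the deviations are mirror images by construction, so these values cannot decide whether the numbers mark pairs. The main fit did not take the numbers as pairs, because the labels do not tie them. With the replicate block, H2-T23 had -1.38 in the mean of both fractions (adjusted p = 0.048 by edgeR), and the count of members was the same in all 6 comparisons.

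With library totals alone, log2 changes that changed sign were in total RNA between populations -0.14 for H2-D1 and -0.035 for Tap2 and in polysomal RNA between populations -0.14 for Erap1.

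After removal of the GC trend, log2 changes that changed sign were in total RNA between populations -0.33 for H2-D1, -0.11 for Tap1, -0.56 for Tap2 and -0.24 for Tapbp, in polysomal RNA between populations -0.18 for Erap1, in polysomal over total RNA in MP 0.13 for H2-T23 and 0.30 for Tapbp and in the interaction 0.022 for H2-T23 and -0.60 for B2m.

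With a replicate block within each population, log2 changes that changed sign were in polysomal over total RNA in MP 0.014 for B2m.

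Without both LSK libraries numbered 2, log2 changes that changed sign were in total RNA between populations -0.65 for Tap2 and 0.17 for Socs3, in polysomal RNA between populations 1.00 for H2-D1, 0.12 for Tap1, 0.43 for Tapbp and -0.71 for Erap1, in polysomal over total RNA in LSK -0.56 for H2-K1, -0.81 for H2-D1, -0.024 for H2-T23, -0.049 for Tap1 and -0.35 for Tapbp, in the interaction 0.022 for H2-K1, 0.12 for H2-D1, -0.20 for B2m, 0.12 for Tap2 and 0.24 for Tapbp and in the mean of both fractions between populations 0.94 for H2-D1, 0.20 for Tap1 and 0.31 for Tapbp.

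Without both MP libraries numbered 1, log2 changes that changed sign were in total RNA between populations -0.42 for Tap2, in polysomal RNA between populations -0.29 for Erap1 and in polysomal over total RNA in MP 0.12 for H2-K1, 0.20 for H2-T23, 0.60 for Tap1 and 0.66 for Tapbp.

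Leaving out 1 library at a time gave ranges of log2 change that crossed 0. For total RNA between populations these were -0.17 to 0.88 for H2-D1, -0.0017 to 0.89 for Tap1, -0.65 to 3.24 for Tap2, -0.019 to 0.87 for Tapbp and -2.49 to 0.17 for Socs3. For polysomal RNA between populations these were -2.5 to 1.00 for H2-D1, -1.08 to 0.63 for B2m, -2.16 to 0.12 for Tap1, -1.73 to 0.44 for Tapbp, -0.74 to 0.41 for Nlrc5 and -0.70 to 1.90 for Erap1. For polysomal over total RNA in LSK these were -0.89 to 1.58 for H2-K1, -1.43 to 2.10 for H2-D1, -0.052 to 2.09 for Tapbp, -1.79 to 0.35 for Nlrc5 and -1.43 to 1.23 for Erap1. For polysomal over total RNA in MP these were -0.36 to 0.12 for H2-T23, -0.47 to 0.012 for B2m, -0.59 to 0.29 for Tap1, -0.025 to 1.26 for Tap2 and -0.49 to 0.40 for Tapbp. For the interaction these were -2.06 to 0.35 for H2-K1, -2.72 to 0.74 for H2-D1 and -0.0198 to 1.74 for B2m. For the mean of both fractions between populations these were -1.14 to 0.63 for H2-D1, -0.86 to 0.32 for Tap1, -0.89 to 1.05 for Tap2, -0.66 to 0.46 for Tapbp and -1.03 to 0.24 for Erap1.

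Counts over all genes by edgeR moved more. In total RNA 134 genes were lower and 45 higher, against 881 and 325 with no filter, 1094 and 377 by DESeq2, and 0 to 336 and 0 to 110 when single libraries were left out. In polysomal RNA 465 genes were lower and 86 higher, against 1179 and 379 with no filter, 1095 and 529 by DESeq2, and 0 to 380 and 0 to 145 when single libraries were left out. In the mean of both fractions 1210 genes were lower and 447 higher, against 1794 and 842 with no filter, 1813 and 893 by DESeq2, and 449 to 1125 and 203 to 473 when single libraries were left out. For polysomal over total RNA in LSK edgeR called 0 genes, DESeq2 396 lower and 37 higher, and limma on the deposited values 478 lower and 8 higher. The causes of these changes were not tested. The effect of depth on these calls was not tested.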

Other observations

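MHC class II molecules present peptides from outside the cell, and their H2 genes lie between the class I loci on chromosome 17. The class II list, which also holds Cd74 and the transactivator Ciita, had lower fitted levels in MP. Of its 10 genes, Ciita included, all 10 were negative in the mean of both fractions, as were 50.5% of all genes. There 7 fell (Ciita, Cd74, H2-Aa, H2-DMa, H2-Eb1, H2-Oa and H2-Ob) and 0 rose, beside 7.37% of all genes that fell. H2-Ob, part of a brake on class II loading, fell by 2.91 on the log2 scale (SE 0.42, adjusted p = 0.00375 by edgeR) and H2-Eb1, a chain of the peptide-binding molecule, by 2.47 (SE 0.41, adjusted p = 0.0064 by edgeR). Cd74, the invariant chain, fell by 1.46 (SE 0.40, adjusted p = 0.0466 by edgeR) and Ciita by 1.82 (SE 0.48, adjusted p = 0.0415 by edgeR). In polysomal RNA 4 of 10 fell, where 3.35% of all genes changed. In total RNA edgeR called 0 of 10, where 1.09% of all genes changed, with 6 lower at an unadjusted p under 0.05 (12.5% of all genes). DESeq2 called 3, but it also called many more of all genes than edgeR, as counted above. The summed level of the list was 888 to 1588 CPM in LSK and 251 to 375 CPM in MP libraries. B cell markers, which also mark cells rich in class II, summed to 624 to 4801 CPM in LSK and 155 to 357 CPM in MP, and their part was not tested. The count of 7 was 6 without both LSK libraries numbered 2, where the B cell markers were highest, 1 without both MP libraries numbered 1 or without MP total 1 alone, 3 without MP total 2 and 4 without MP polysomal 2.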
